A study of Drosophila sechellia with 6 samples.

Results

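The GATA factors of *Drosophila sechellia* and their cofactor *ush* were followed in RNA-seq of whole female flies fed with and without noni fruit. The group has 6 members, chosen by name among the 17273 genes of the deposited table, with earlier results of these data known: *GATAd* (GM18170), *srp* (GM24275), *GATAe* (GM24276), *pnr* (GM24279), *grn* (GM26366) and *ush* (GM16748). The paper predicted the 5 GATA factors as regulators from the genes it called changed on noni food. *D. sechellia* is a fruit fly that feeds on noni, *Morinda citrifolia*, whose ripe fruit is toxic to related species. The comparison asks which genes differ in level when the flies eat rotten noni. The paper describes rotten noni as keeping the dopamine precursor L-DOPA. In its account the toxicity to related species is not kept, because microbes reduce the volatile fatty acids. Both diet groups were adult females of the strain 14021-0428.25, aged 0 to 3 days, reared at 20 °C under 16 h of light and 8 h of dark. The control group was kept for 24 h on control food, and the noni group for 24 h on the same food with 1 g of rotten noni pulp from fruit aged for 7 days. Each group was 3 libraries of 10 pooled flies, all of the same strain.

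The values are FPKM, which count fragments per length of transcript and per size of the library, so that genes and diets can be compared on one scale. The table holds 1 pooled value per diet for each gene, so no spread between libraries could be computed from these levels, and no test, SD or interval is given. The statistics of the authors' own comparison were not used. Every difference here is a description of these pooled values. The number of fragments behind a value is not in the table used here.

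GATA factors are zinc finger transcription factors that bind DNA at the short sequence after which they are named. In *D. melanogaster*, *srp* (*serpent*) specifies the fat body, the blood cells and the early endoderm, *GATAe* keeps endoderm and adult midgut cells differentiated, *pnr* (*pannier*) patterns the dorsal embryo, the heart and the thorax, and *grn* (*grain*) acts in axon guidance and in shaping the posterior spiracles. *ush* (*u-shaped*) is a Friend of GATA protein, which has no GATA-type finger of its own but binds GATA factors such as Pnr and Srp and changes what they do to their targets. The fat body is the insect counterpart of liver and adipose tissue, and the midgut is the digestive part of the gut.

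In these flies *GATAd*, *srp* and *ush* were higher on noni food, and *GATAe* was lower. Among its predicted factors, the GATA factors included, the paper reports only the transcription factor *sim* as significantly different on noni food. It reports *GATAd* and *ush* as significantly higher under L-DOPA, in a separate experiment. *GATAd* had the highest level of the 6 in both diets, with 20.4 FPKM on control food and 28.9 FPKM on noni food. The latter was 1.42-fold the former, a log2 ratio of noni to control of 0.50. The gene lies on scaffold 3 of the build dsec_caf1, at scaffold_3:5759267-5763605.

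*srp* was second, with 10.6 FPKM in control and 14.8 FPKM in noni. The noni level was 1.40-fold the control level, with a log2 ratio of 0.48. Thus *srp*, the factor of fat body and blood cells, differed between the diets by nearly the same ratio as *GATAd*. It lies at scaffold_0:10129655-10138892.

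*GATAe*, the midgut factor, went the other way. Its level was 9.61 FPKM in control and 6.98 FPKM in noni. The control level was 1.38-fold the noni level, with a log2 ratio of -0.46. *GATAe* lies at scaffold_0:10114521-10120530, next to *srp*.

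*pnr* and *grn* were both under 1 FPKM. *pnr* had 0.612 FPKM in control and 0.700 FPKM in noni, with a log2 ratio of 0.20, and *grn* had 0.498 FPKM in control and 0.365 FPKM in noni, with a log2 ratio of -0.45. Cuffdiff marked both as having too few alignments to be compared. Ratios and shares of *pnr* and *grn*, here and below, only describe these low levels. Neither gene is counted among the genes compared. *pnr* lies at scaffold_0:10093157-10098311. For *grn* the table gives only a merged locus of 90.5 kb, scaffold_0:17785707-17876206, which it shares with 7 other loci. Of those, 5 were at 0 in both diets, and the highest, GM23705, had 58.2 FPKM in control and 71.5 FPKM in noni. How reads were divided among the genes of this locus was not tested.

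The cofactor *ush* had 7.70 FPKM in control and 10.003 FPKM in noni. The noni level was 1.30-fold the control level, with a log2 ratio of 0.38. It lies on another scaffold, at scaffold_14:506770-522526. Since the RNA came from whole flies, a higher or lower value can come from more or fewer cells of a type or from more or less RNA per cell, and these cannot be told apart.

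**Figure D1:**
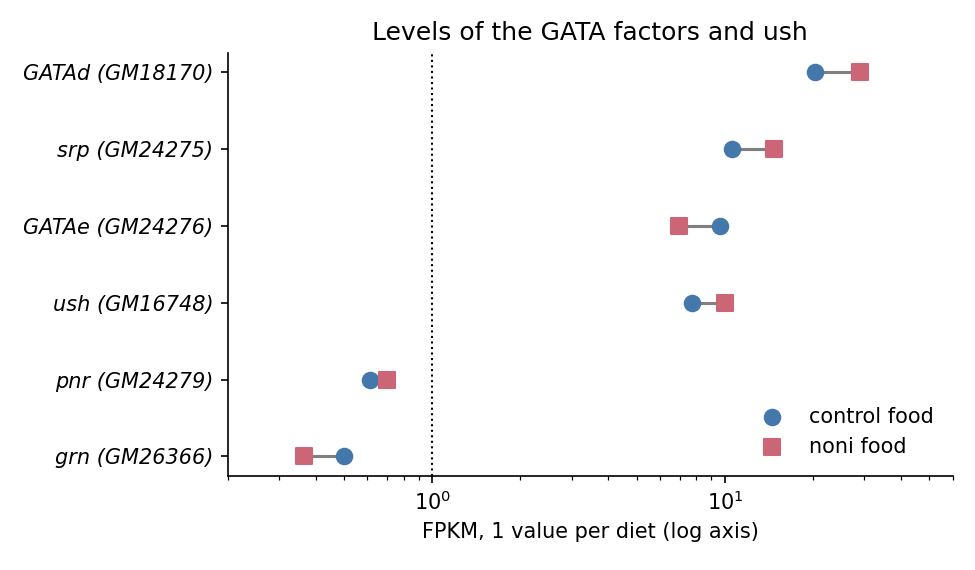
Level of each GATA factor and of *ush* in FPKM (log axis), with 1 pooled value per diet, so there are no error bars. Circles are control food, squares are noni food and the dotted line marks 1 FPKM. *GATAd*, *srp* and *ush* are higher on noni food, *GATAe* is lower, and *pnr* and *grn* lie under 1 FPKM.

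The order of the levels was *GATAd*, *srp*, *GATAe*, *ush*, *pnr* and *grn* in control. In noni it was the same except that *ush* and *GATAe* changed places. In control *srp* and *GATAe* were close, with *srp* at 1.10-fold of *GATAe*, and *ush* came next. In noni *srp* was 1.48-fold above *ush*, and *ush* was 1.43-fold above *GATAe*. *GATAd* stood 1.93-fold above *srp* in control and 1.96-fold above it in noni. The lower pair was far from the rest, since the fourth gene was 12.6-fold above *pnr* in control and 9.97-fold above it in noni. Without a spread over libraries, whether neighbours in this order differ beyond their error cannot be said. Among all 17273 genes the mean level of *GATAd* was at percentile 62.8, that of *srp* at 51.2, that of *ush* at 46.5 and that of *GATAe* at 45.7, while *pnr* was at 28.0 and *grn* at 26.0.

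To read these ratios against the rest of the table, the 11860 genes whose mean level was at least 1 FPKM, and which were above 0 in both diets, were used. Their median log2 ratio was 0.04, with quartiles of -0.21 and 0.25. Of the 6 members, 4 were in this set. A log2 ratio of at least 0.32 in either direction, the smaller of the 2 differences counted, was taken first. By it 3 of these 4 were higher on noni food, where 18.9% of all genes were, and 1 of the 4 was lower, where 18.8% of all genes were. So all 4 were at least 0.32 apart, against 37.7% of all genes. At 1.5-fold, a log2 ratio of 0.58, 0 of the 4 were apart in either direction, beside 5.96% of all genes higher, 9.75% lower and 15.7% in either direction. With no fold asked, 55.1% of all genes were higher on noni food and 44.9% were lower. When the FPKM were rescaled to the same sum over all genes in both diets, *GATAd* passed 1.5-fold, with a log2 ratio of 0.59.

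The ratios of the members lay in the outer parts of the distribution but not at its ends. *GATAd* was at percentile 91.9 of the log2 ratios, *srp* at 91.1 and *ush* at 85.5, and *GATAe* was at 13.3. Each was also placed among genes within 0.5 on the log2 scale of its own mean level. There *GATAd* was at percentile 94.2 of 2441 genes, *srp* at 88.8 of 1760, *ush* at 81.7 of 1388 and *GATAe* at 15.5 of 1288.

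**Figure D2:**
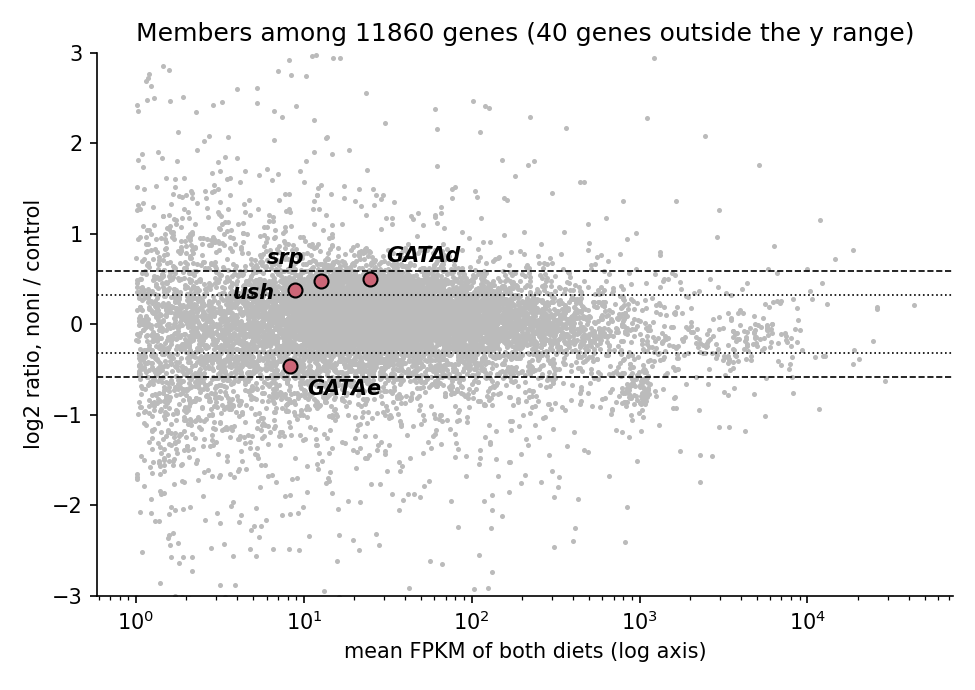
Log2 ratio of noni to control against the mean FPKM of both diets (log axis) for 11860 genes in grey, with the 4 members above 1 FPKM in red. Dotted lines mark log2 ratios of 0.32 either way and dashed lines 1.5-fold, and the members lie between them, with *GATAd*, *srp* and *ush* above 0 and *GATAe* below.

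Because FPKM are per length, the 5 GATA factors can be added. Their sum was 41.7 FPKM in control and 51.7 FPKM in noni, 1.24-fold higher on noni food, with a log2 ratio of 0.31. Without *GATAd* the sum was 21.3 FPKM in control and 22.8 FPKM in noni, only 1.07-fold higher. The noni level minus the control level was 8.49 FPKM for *GATAd*, 4.21 FPKM for *srp* and -2.63 FPKM for *GATAe*. The remainder without *GATAd* was thus small because the higher *srp* was partly offset by the lower *GATAe*.

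In the make-up of the sum, the share of *GATAe* was lower on noni food and those of *GATAd* and *srp* were higher. *GATAe* made up 23.1% of the summed GATA level in control and 13.5% in noni. *GATAd* made up 48.9% in control and 55.9% in noni, and *srp* 25.3% and 28.6%. The share of *pnr* was 1.47% in control and 1.35% in noni, and that of *grn* was 1.20% and 0.705%.

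**Figure D3:**
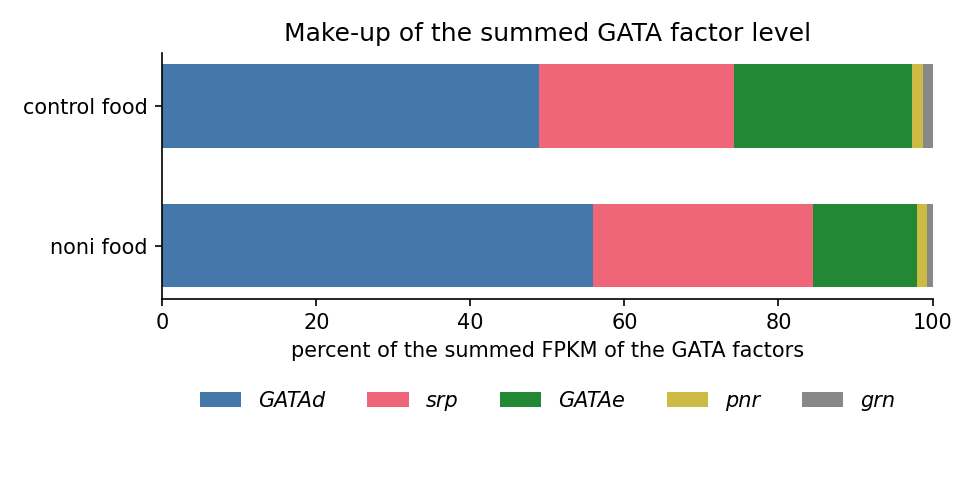
Share of each GATA factor in the summed FPKM of the 5, in percent, with 1 bar per diet and no error because each value is pooled. The *GATAe* part is 23.1% in control and 13.5% in noni, and the *GATAd* and *srp* parts are larger in noni.

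Ratios between members within a diet do not depend on how the diets were scaled against each other. The ratio of *srp* to *GATAe* was 1.10 in control and 2.12 in noni, a 1.93-fold difference. The ratio of *GATAd* to *GATAe* was 2.12 in control and 4.14 in noni, a 1.95-fold difference. In contrast, the ratio of *GATAd* to *srp* was 1.93 and 1.96. The balance between the midgut factor and the other abundant GATA factors therefore differed between the diets, while that between *GATAd* and *srp* was nearly the same.

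The level of *ush* relative to its possible partners depended on which partner was taken. Relative to the sum of the 5 factors it was 0.185 in control and 0.194 in noni. Relative to *srp*, with which Ush acts in blood cells of *D. melanogaster*, it was 0.729 in control and 0.677 in noni. Relative to *GATAd* it was 0.378 and 0.346. These ratios were all close between the diets. Relative to *GATAe* it was 0.801 in control and 1.43 in noni, and relative to *pnr*, the partner best known for Ush, it was 12.6 and 14.3.

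*pnr*, *GATAe* and *srp* lie in this order on scaffold 0 within 45.7 kb, with a gap of 16.2 kb between *pnr* and *GATAe* and of 9.12 kb between *GATAe* and *srp*. *GATAe* and *srp* are next to each other in the table, and *GATAe* was lower on noni food while *srp* was higher, a difference of 0.95 between their log2 ratios. Over the 8594 pairs of consecutive genes on a scaffold that do not overlap and were both compared, 893 (10.4%) differed by at least that much. In 448 pairs (5.21%), as in this pair, both genes differed between diets by at least 0.32 on the log2 scale in opposite directions.

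Within 20 kb of this stretch there were 8 other genes. Of these, 3 were at 0 in both diets, and 2 of those lie between *pnr* and *GATAe*. The other 5 could be compared, and 4 were higher and 1 lower on noni food, with a median log2 ratio of 0.30. Over all genes 55.1% were higher and 44.9% lower, with a median of 0.04. The highest was GM25738, listed with the *D. melanogaster* ortholog *CG10407*, at 0.57, and the lowest was GM24281 at -0.26. Of the 5, 2 were higher by at least 0.32 on the log2 scale and 0 were lower by as much. Over all genes 18.9% were higher by as much and 18.8% lower. Among the few genes compared in the window *GATAe* had the lowest ratio, while 13.3% of all genes had a lower one.

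**Figure D4:**
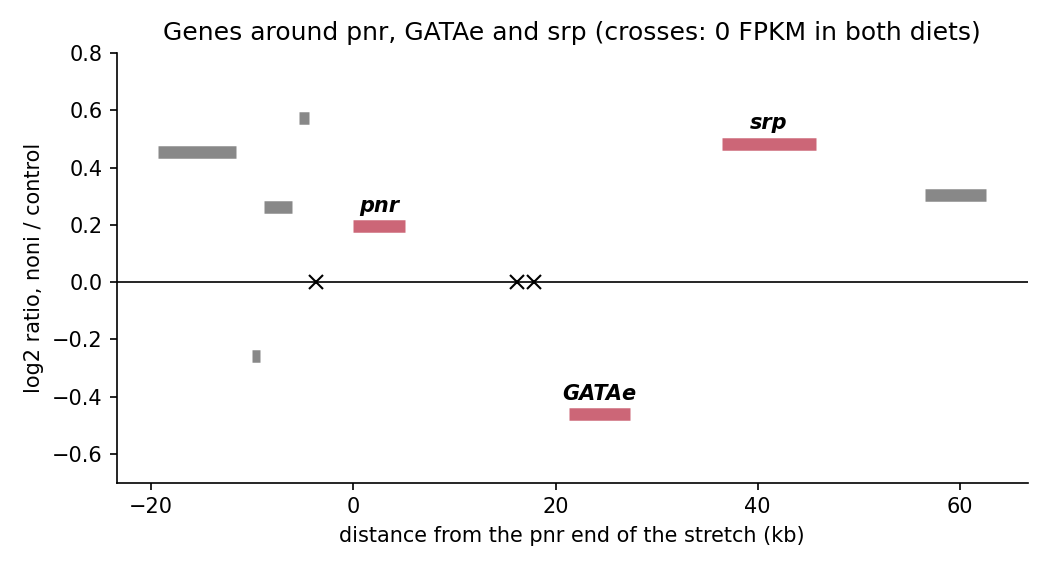
Log2 ratio of noni to control of the genes around *pnr*, *GATAe* and *srp*, against distance in kb from the *pnr* end of the stretch. Bars span each locus, members are red, other genes are grey and crosses are genes at 0 in both diets. *GATAe* lies at -0.46 beside *srp* at 0.48.

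Genes that act with GATA factors were looked at next. Names of *D. melanogaster* orthologs were taken from the deposited table and from ortholog columns of the study's gene tables for noni and for single noni compounds. In the copies used here those tables hold the genes that the study called changed and only part of the rest. Matched genes are therefore more likely to differ between diets, and the counts below are not independent evidence of a direction. Of 10 partner names, 5 were matched and 4 genes were compared, all 4 higher on noni food and 0 at 1.5-fold. Besides *ush* at a log2 ratio of 0.38, these were *MTA1-like*, of the NuRD chromatin remodelling complex, at 0.16, the histone deacetylase *Rpd3* at 0.12 and the corepressor *CtBP* at 0.11. Over all genes 55.1% were higher and 5.96% at least 1.5-fold higher. The ratios of *MTA1-like*, *Rpd3* and *CtBP* lay between the quartiles of all genes, -0.21 and 0.25. *tin*, which acts with *pnr* in the heart, was at 0 in both diets and was the only 1 of 7 heart and dorsal names matched.

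The matched genes of the midgut, where *GATAe* acts, were lower on noni food, as *GATAe* itself was. Of 19 midgut names, 9 were matched to 8 genes, and all 8 were lower, 5 of them by at least 1.5-fold, beside the 9.75% of all genes given above. The maltase gene *Mal-A1* had 316 FPKM in control and 99.5 FPKM in noni, a log2 ratio of -1.67. The trypsin gene GM20441, listed as the ortholog of *alphaTry* and *deltaTry*, was at -1.41, and the innexin gene *Inx7* at -0.74. The serine protease gene *Jon65Aiii* was nearest to 0, at -0.23. With the 5 genes that are also named from a source other than the study's noni gene table, all 5 were lower and 2 passed 1.5-fold. Trypsin and amylase genes have near-identical copies, so the values of single copies are uncertain.

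All 3 genes of the smooth septate junction, the barrier between midgut epithelial cells, were matched. *mesh* had 44.4 FPKM in control and 21.8 FPKM in noni, *Tsp2A* 125 and 61.6 FPKM, and *Ssk* 278 and 160 FPKM. All 3 were at least 1.5-fold lower on noni food, beside 9.75% of all genes. Their median log2 ratio was -1.02, beside 0.04 over all genes. *mesh* and *Ssk* were named only from the study's noni gene table, and *Tsp2A* is listed there too. The paper itself reports this junction among the terms enriched in its downregulated genes. Of the 11 midgut and septate junction genes, 10 had a lower log2 ratio than *GATAe*, and *Jon65Aiii* was the exception. Over all genes compared, 13.3% had a lower ratio than *GATAe*. Most of the 11 were listed in the study's noni gene table, which favours genes that differ between diets. The count is therefore not independent evidence of a link to *GATAe*. Whether the lower *GATAe* reflects less midgut RNA in the whole fly was not tested.

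Genes of the tissues of *srp* did not share 1 direction. Of 8 fat body names, 6 were matched, with 4 higher and 2 lower on noni food, and 3 were at least 1.5-fold higher. Over all genes 55.1% were higher, which is near the 4 of 6 here, and 5.96% were at least 1.5-fold higher. The larval serum protein gene *Lsp2* had 31.1 FPKM in control and 173 FPKM in noni, a log2 ratio of 2.47. The yolk protein genes *Yp1* and *Yp2*, which the ovary also expresses, were at 0.83 and 0.72. *Fbp1*, at -0.37, and *Fbp2*, at -0.58, were lower on noni food. Of 13 haemocyte names 4 were matched and 2 were compared, both lower: the prophenoloxidase gene *PPO2* had 3.95 FPKM in control and 1.06 FPKM in noni, and the phagocytosis receptor gene *eater* had 2.30 and 0.913 FPKM. Both were at least 1.5-fold lower, beside 9.75% of all genes, and 44.9% of all genes were lower by any amount. Both genes were near 1 FPKM on noni food and were named only from the study's noni gene table. *eater* reached a mean of 1 FPKM only through its control level, so its lower value is partly a result of that filter. *srp* was higher on noni food, but these 2 genes cannot show the direction of blood cell genes as a whole.

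The matched ovary markers were higher on noni food, as *GATAd*, *srp* and *ush* were. Of 6 ovary names 4 were matched, and all 4 were higher on noni food, 3 by at least 1.5-fold, beside 55.1% of all genes higher and 5.96% at least 1.5-fold higher. Their log2 ratios ran from 0.43 for *nos* to 1.26 for the chorion gene *Cp36*. *otu* and *Cp36* were named only from the study's noni gene table, and *bcd* and *nos* are listed there too. The count is therefore not independent evidence of a direction. The part of ovary RNA in the higher values of the 3 members was not tested. The label of female flies was checked against male markers, of which 3 of 4 were matched and none was above 0.0452 FPKM in either diet.

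**Figure D5:**
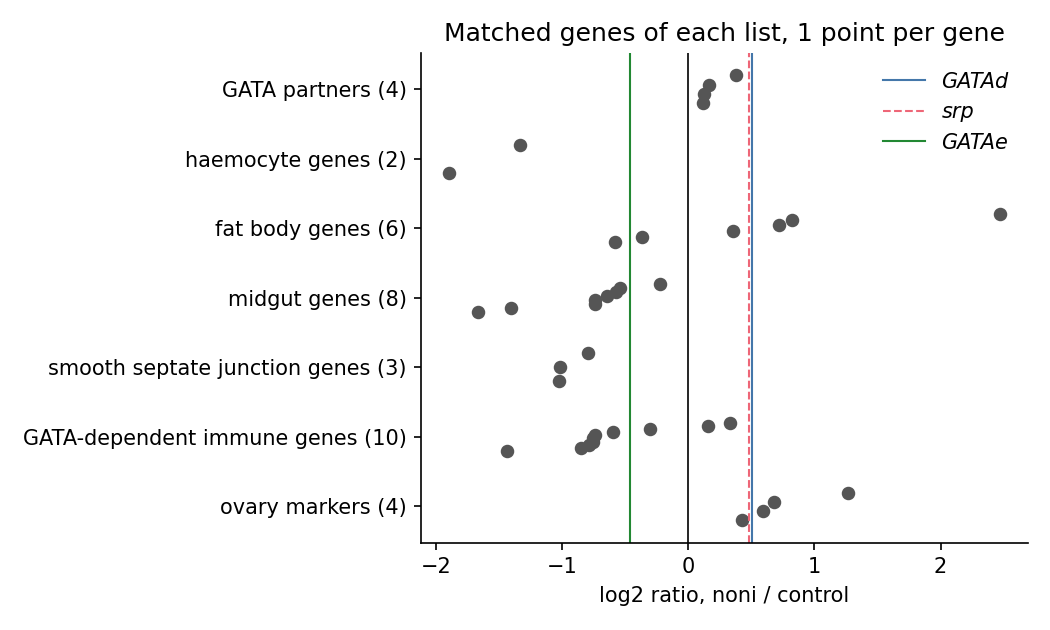
Log2 ratio of noni to control, 1 point per matched and compared gene, for each list named at the left with its number of genes. Vertical lines give *GATAd*, *srp* and *GATAe*. The points of the midgut and septate junction genes lie below 0, on the side of *GATAe*, and those of the ovary markers above 0, on the side of *GATAd* and *srp*.

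The genes most like each member were found by the distance between their pairs of log2 levels, over the 2 diets only. For *GATAd* the nearest was GM18153, with 20.4 FPKM in control and 28.6 FPKM in noni. For *srp* it was GM25023, with 10.5 and 15.1 FPKM. For *GATAe* it was GM19498, with 9.67 and 6.98 FPKM, and for *ush* it was GM22124, with 7.63 and 9.94 FPKM. None of these 4 had an ortholog in the tables used here, and with 1 value per diet such a match is a description of level.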

How the data were processed

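RNA was measured in 3 control and 3 noni libraries, each of 10 whole females, and the labels give the diet of each library. Reads were aligned by the authors to the build dsec_caf1 (Bowtie2) and quantified by Cuffdiff on Ensembl release 42 gene models. The tool versions are not given in the sources used here. The deposited FPKM are Cuffdiff's, normalized geometrically and corrected for library size and for bias, and are pooled over the libraries of a diet, so the depth behind each value is unknown. The same table holds the authors' log2 ratios, test statistics, p-values and q-values, which were not used. Its status column, which marks genes with too few alignments for Cuffdiff's test, was read but set no filter.

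Log2 ratios of noni to control were computed with no pseudocount, and genes above 0 in both diets whose mean was at least 1 FPKM were compared. Called means past 1.5-fold or past a log2 ratio of 0.32. Locus starts in the table count from 0, and positions are given counted from 1. The members and the 10 gene lists were chosen with earlier results of these data known. Named genes are the members, the extremes of the window of 20 kb around *pnr*, *GATAe* and *srp*, the gene nearest to each compared member, and genes of the lists. GM23705, in the locus of *grn*, was chosen after its values were seen. A median is given for a list only where at least 80% of its names were matched. Alternatives were other pseudocounts, scalings, FPKM minimums and folds. Calculations used Python 3.11.15, numpy 2.4.6, pandas 2.3.3 and matplotlib 3.10.9. The counts past a fold and the percentiles were checked on control levels with known differences put in. The other calculations were not tested in this way.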

Additional observations from a re-analysis of the deposited data

How the results depend on the processing

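*GATAd*, *srp*, *GATAe* and *ush* kept their direction, and stayed at least 0.32 apart on the log2 scale, under the pseudocounts and scalings tried. Of 55 recomputed values, 41 stayed within 0.1 on the log2 scale, 1.5 times for counts or 10 points for percentiles, and on the same side of 1.5-fold. Each scaling moves every log2 ratio by the same constant, which was smaller than 0.1 in size. Rescaled log2 ratios therefore had to stay within 0.1, and this count is no measure of robustness for them. With the same sum over all genes the log2 ratio of *GATAd* was 0.59, past 1.5-fold. With 1 FPKM added, *pnr* was at 0.077 and *grn* at -0.13, which follows from their low levels. The count of genes at least 1.5-fold apart, 1863, was 961 at a mean of at least 10 FPKM, and it was 703 at 2-fold and 4466 at a log2 ratio of 0.32. The summed GATA level without *GATAd* had a log2 ratio of 0.10. The log2 ratio of *ush* per summed GATA level, 0.07, was reversed relative to *srp* and *pnr* (-0.092), to *GATAd* (-0.12) and to *srp* (-0.11), and it was 0.84 relative to *GATAe*, 0.18 to *pnr* and 0.83 to *grn*. The midgut count of 5 was 2 without names from the study's noni gene table alone, where fewer genes were counted. The alternatives for the percentiles, the midgut and septate junction genes and the ratio of *srp* to *GATAe* were chosen after seeing the data. No paired analysis was possible because the values are pooled over the libraries of a diet, and for the same reason no library could be left out. Searches of promoters and of zinc fingers were not run. The unknown spread between libraries limits every comparison here.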

Other observations

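GATA factors also act at immune genes of the fat body, together with the NF-kappaB factor Relish, in *D. melanogaster*. Of 12 names of such immune genes 11 were matched to 10 genes, of which 2 were higher and 8 lower on noni food, and 7 were at least 1.5-fold lower, beside 44.9% of all genes lower and 9.75% at least 1.5-fold lower. Their median log2 ratio was -0.75, beside 0.04 over all genes compared. The lowest was the antibacterial peptide gene *Def*, at -1.44, and the highest was *CecC*, at 0.33, while *Rel* itself was at -0.30. *srp*, the fat body GATA factor, was higher on noni food, at 0.48. *CecA1* and *CecC* share their listed orthologs, so the values of the single cecropin genes are uncertain. As for the other lists, the tables that gave the names favour genes that the study called changed.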
